A study of Homo sapiens with 21 samples.

Results

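The data described here are the response to trametinib of YAPKO2, the second of the YAP1 knockout lines made from NLF, a human neuroblastoma cell line. They were chosen by label as the 3 YAPKO2 libraries with trametinib and the 3 YAPKO2 libraries with DMSO, 6 of the 21 libraries of the series. Trametinib inhibits the kinases MEK1 and MEK2. It was given at 20 nM for 72 h, starting 24 h after plating. The solvent control was DMSO, at 0.01% per the sample labels and 0.1% per the series text. YAPKO2 carries a Cas9 lentivirus with a guide against YAP1, and the labels do not say whether it is a clone or a pool. The responses set beside it are those of YAPKO1, a knockout line made with another YAP1 guide, and of sgCON, NLF cells with a Cas9 lentivirus and a scrambled guide, each with 3 trametinib and 3 DMSO libraries at the same dose and time. The parental NLF libraries (3, DMSO) enter only the scaling and the estimate of the spread. Total RNA was sequenced after removal of ribosomal RNA, and the series asks how YAP bears on resistance to trametinib in neuroblastomas with an overactive RAS pathway.

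MEK phosphorylates ERK, which drives growth genes through ETS and AP-1 transcription factors and also induces the phosphatases and adaptors that restrain the pathway. Neuroblastoma arises from the sympathetic lineage, and its adrenergic state rests on factors such as HAND2 and GATA3, with MYCN as its best known oncogene. YAP1 is a coactivator of the TEAD transcription factors, held in check by the Hippo kinases.

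The YAPKO2 guide is shown to place the knockout. It lies on the minus strand at chr11:102110997-102111016 (GRCh38). There it falls within coding sequence of exon 1 in 7 of 11 YAP1 transcripts of the annotation, and the capitals mark its PAM, the motif Cas9 needs beside its target.
YAPKO2 guide: gtgcacgatctgatgcccggCGG
YAP1 RNA stood at 2.79, 1.18 and 3.77 scaled FPKM (FPKM divided by a scale factor of the library) in the trametinib libraries of YAPKO2, against 3.22, 2.72 and 2.85 in its DMSO libraries. The values overlap, and the log2 change was -0.26 ± 0.23 (limma adjusted p = 0.49). It was 0.13 without trametinib replicate 2, so no direction is given. The sgCON line held 23.6 ± 1.07 with trametinib and 25.9 ± 1.9 with DMSO (SD, n = 3). All 6 YAPKO2 values lie well under these. A small insertion or deletion at the site need not lower the RNA, and YAP protein was not measured here.

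Sympathetic markers were present in all 6 YAPKO2 libraries. GATA3 stood at 27.8, 30.0 and 26.7 scaled FPKM with trametinib and 17.7, 21.1 and 18.8 with DMSO, and MYCN, HAND2 and ISL1 were also detected. TH, the first enzyme of catecholamine synthesis, was at most 0.291, and MYC was at most 0.222. Markers of other cell types were low except those of fibroblasts. The summed level of the 5 tested members of 11 Schwann cell and glial markers was 8.66 to 9.6 with trametinib and 9.68 to 11.7 with DMSO, with PMP2 and CDH19 at 0. That of the 4 tested members of 11 epithelial markers was 1.03 to 2.52 with trametinib and 2.12 to 2.5 with DMSO, with CDH1, KRT5 and KRT14 at 0. Of 11 blood and endothelial markers CD68 alone passed the filter, at 0.413 to 0.936 with trametinib and 0.348 to 1.16 with DMSO, and CD3E and HBB were at 0. Fibroblast markers were not low: 9 of 11 were tested, and their sum was 222 to 363 with trametinib and 407 to 641 with DMSO, carried by the matrix proteoglycans LUM and DCN, with FAP at 0. Whether other cells contribute to them was not tested. In bulk RNA, fewer cells of a kind and less RNA per cell cannot be told apart.

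The libraries of YAPKO2 differed in how well GC-rich transcripts were represented. To measure this, the median log2 deviation of protein-coding genes with at most 42.8% transcript GC was subtracted from that of genes with at least 57.1%. The resulting GC trend was 0.72, 1.37 and -0.26 in trametinib replicates 1, 2 and 3, against 0.08, 0.63 and 0.16 in the DMSO replicates. Trametinib replicates 2 and 3 lie at opposite ends of the 6. The median SD of a gene across replicates (log2) was 0.328 in the trametinib group and 0.175 in the DMSO group, while it was 0.135 and 0.130 in the sgCON groups. Depth, read from low values relative to DMSO replicate 1, was 0.92 to 1.24 with trametinib and 1 to 1.5 with DMSO. Nothing in the labels says that replicates are separate cultures, so p-values measure the spread between libraries. In the main fit that spread is taken over all 21 libraries, not from YAPKO2 alone.

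Trametinib changed 3243 of the 16194 tested genes in YAPKO2 (20.0%) at an adjusted p under 0.05, here termed called. Of these 1438 were higher (8.88%) and 1805 lower (11.1%). Values with trametinib and DMSO did not overlap for 4680 genes (28.9%), 13.8% of the tested genes higher and 15.1% lower. The fit took 1 spread from all 21 libraries. With only the 6 libraries of the groups compared, so that the spread is that of YAPKO2 alone, 683 genes were called, 296 higher and 387 lower. Below, "only the groups compared" means that fit. Without trametinib replicate 2 the counts were 1144 higher and 1687 lower (10.4%). After a correction of each library for its GC trend they were 1979 and 2519. Without scaling between libraries the split turned to 1857 higher and 1435 lower, with the median of all tested genes at 0.05 (log2). The change correlated with transcript GC content over 15615 genes by a Spearman rho of 0.231 (genes are not replicates), against 0.265 in YAPKO1 and 0.259 in sgCON. In YAPKO2 it was -0.056 without trametinib replicate 2 and 0.0043 after the correction.

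**Figure D1:**
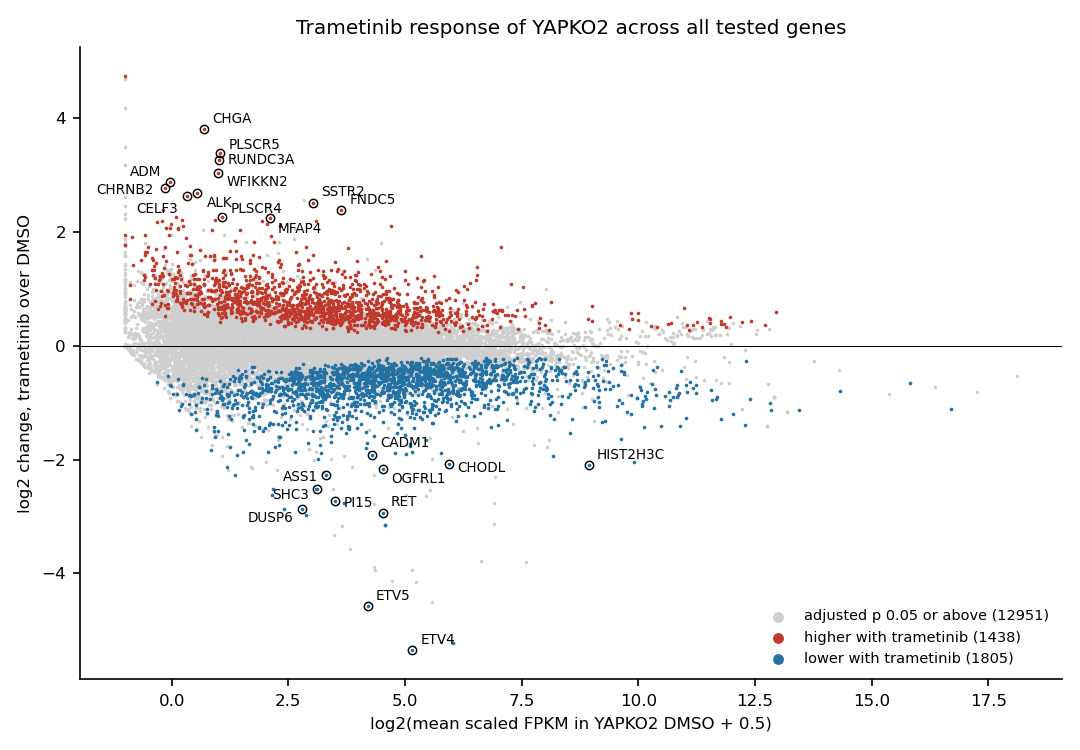
Log2 change with trametinib (y axis) against the mean level with DMSO in YAPKO2 (x axis, log2 of scaled FPKM + 0.5), 1 point per tested gene, with the genes called higher (1438) and lower (1805) in colour. The labelled genes are the 12 largest rises and 11 of the 12 largest falls by the rule for named genes, of which ETV4 lies lowest (-5.35) and CHGA highest (3.8).

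The 12 largest rises were led by CHGA. CHGA, the secretory granule protein chromogranin A, stood at 19.9, 25.7 and 19.6 scaled FPKM with trametinib, against 0.782, 1.36 and 1.17 with DMSO. PLSCR5, of the phospholipid scramblase family, stood at 18.5, 19.9 and 24 with trametinib, against 1.91, 1.55 and 1.19 with DMSO. RUNDC3A, a RUN domain protein of neurons, stood at 19.3, 21.6 and 15.9 with trametinib, against 1.24, 1.36 and 1.99 with DMSO. In each of them the lowest trametinib library lay far above the highest DMSO library. The log2 changes were 3.8 ± 0.25 (limma adjusted p = 1.93e-08) for CHGA, 3.38 ± 0.18 for PLSCR5 and 3.27 ± 0.23 for RUNDC3A. SSTR2, a somatostatin receptor, reached 47.2, 51.4 and 39.6 with trametinib, against 6.94, 7.93 and 8.02 with DMSO. The irisin precursor FNDC5 reached 63.2, 69.6 and 59.4 with trametinib, against 12.8, 12.2 and 10.8 with DMSO. Both were even across the 3 libraries, with log2 changes of 2.51 ± 0.16 and 2.38 ± 0.27. The other rises of this size were WFIKKN2, which binds growth factors of the TGF-beta family (3.03 ± 0.18), the vasodilator peptide ADM (2.87 ± 0.26), the nicotinic receptor subunit CHRNB2 (2.77 ± 0.19), the receptor kinase ALK (2.69 ± 0.16), the neuronal splicing factor CELF3 (2.63 ± 0.23), the scramblase PLSCR4 (2.25 ± 0.36) and the microfibril protein MFAP4 (2.24 ± 0.19). The rule required values that do not overlap between the groups, a call, and a call without trametinib replicate 2. Under every other setting tried the 12 were called too.

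The largest fall was that of ETV4. ETV4, an ETS factor that ERK signalling induces, stood at 0.541, 0.403 and 0.192 scaled FPKM with trametinib, against 34, 41 and 30.5 with DMSO. ETV5, of the same PEA3 group, stood at 0.491, 0.161 and 0.183 with trametinib, against 15.5, 18.1 and 20.0 with DMSO. The levels with trametinib lie near or under the pseudocount of 0.5, so the log2 changes of -5.35 ± 0.19 and -4.58 ± 0.24 understate the ratio. RET, the receptor for GDNF ligands, fell to 2.76, 2.72 and 2.07 with trametinib, against 24.4, 22.7 and 20.3 with DMSO, a change of -2.93 ± 0.15 (limma adjusted p = 1.54e-09). SHC3, a neuronal adaptor of receptor kinases, fell to 0.962, 1.33 and 0.808 with trametinib, against 8.64, 7.22 and 8.66 with DMSO. CHODL, a membrane lectin, fell to 11.8, 11.5 and 19.9 with trametinib, against 59.4, 55 and 67.3 with DMSO. The adhesion molecule CADM1 changed by -1.93 ± 0.16 on the log2 scale, and ASS1, which makes argininosuccinate, by -2.27 ± 0.29. PI15, a secreted peptidase inhibitor with 35.2% GC, stood at 1.14, 0.151 and 3.05 with trametinib, against 15.5, 4.89 and 12.1 with DMSO (-2.72 ± 0.51). OGFRL1, with 34.9% GC, stood at 4.85, 1.59 and 9.7 with trametinib, against 30.7, 13.1 and 23.5 with DMSO (-2.16 ± 0.42). Both were lowest in replicate 2 of either group, the libraries with the highest GC trend of their group. In the fit with only the groups compared their adjusted p was 0.0924 and 0.113. HIST2H3C, 1 of several near-identical histone H3 genes whose reads cannot be told apart with certainty, changed by -2.1 ± 0.56 and was not called in the fit of those groups alone (adjusted p = 0.182) or without replicate 2 of both groups.

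**Figure D2:**
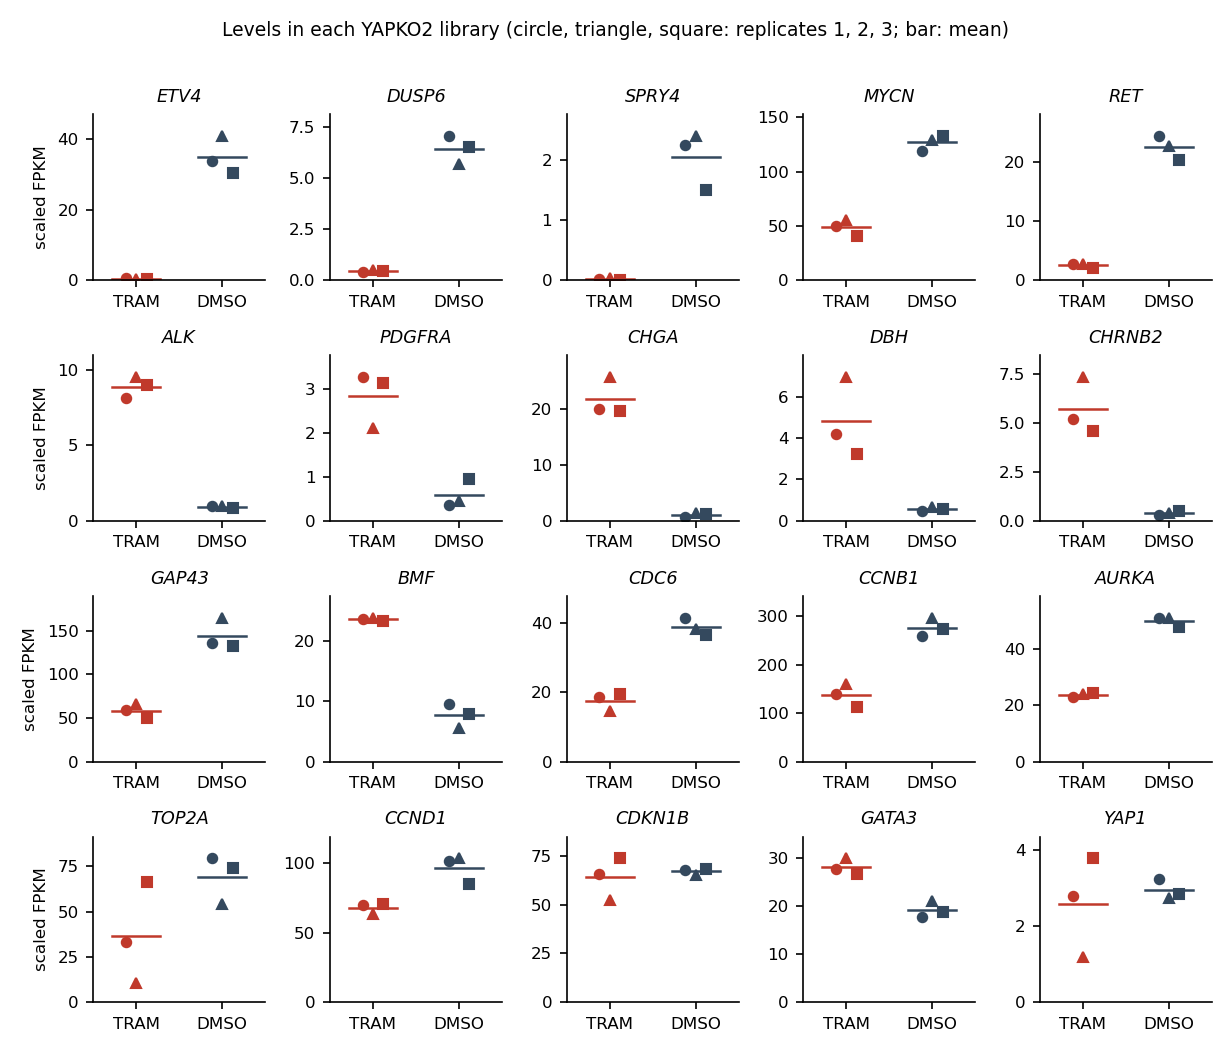
Scaled FPKM (y axis, from 0) of 20 genes in each YAPKO2 library, trametinib (TRAM) left of DMSO, with symbols for replicates 1 to 3 and a bar for the mean. ETV4, RET and MYCN are lower and CHGA, ALK and BMF higher in every trametinib library, while TOP2A spreads from 10.6 to 66.6 across the trametinib libraries and YAP1 overlaps.

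ERK feedback genes are a direct readout of the drug. Of 18 listed phosphatases and inhibitors 16 were tested, 8 were called lower (11.1% over all tested genes) and 1 higher, with a median log2 change of -0.53, against -0.00227 over all tested genes. DUSP6, the phosphatase that inactivates ERK, stood at 0.391, 0.483 and 0.452 scaled FPKM with trametinib, against 7.06, 5.7 and 6.51 with DMSO. SPRY4, a Sprouty inhibitor of receptor signalling, was at 0.02, 0.0302 and 0.00962 with trametinib, against 2.25, 2.4 and 1.51 with DMSO. SPRY2, of the same family, stood at 8.69, 9.18 and 7.97 with trametinib and 22.8, 22.7 and 22.4 with DMSO. The groups were far apart in all 3, and only SPRY2 stayed well above 0. SPRED2, which blocks RAF activation, changed by -1.28 ± 0.13 (limma adjusted p = 4.07e-06), and the phosphatases DUSP4 and DUSP5 by -1.06 ± 0.12 and -1.14 ± 0.21. SPRED1 changed by -1.02 ± 0.26 and was not called in the fit of those groups alone (adjusted p = 0.16) or without replicate 2 of both groups. In that fit 6 of the 16 were called lower.

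Among ETS factors and immediate early genes 18 of 26 passed the filter, with a median of -0.28. Of the 18, 8 were lower and 2 higher (11.1% and 8.88% over all tested genes). Besides ETV4 and ETV5 the falls included FOSL1, an AP-1 subunit stabilised by ERK. It stood at 1.05, 1.11 and 1.11 scaled FPKM with trametinib and 3.83, 4.25 and 3.07 with DMSO (-1.4 ± 0.17, limma adjusted p = 1.36e-05). EPHA2, an ephrin receptor that ERK induces, stood at 1.16, 0.916 and 0.779 with trametinib and 3.71, 4.73 and 4.74 with DMSO (-1.75 ± 0.2). The AP-1 subunit FOSL2 went the other way (0.89 ± 0.19), a call not made with only the groups compared (adjusted p = 0.0847). EGR1, the usual early readout, was under the filter in both groups, at most 0.221 with trametinib and 0.478 with DMSO. Of the 29 tested components of the RAS to ERK cascade itself, 2 were called higher and 3 lower (8.88% and 11.1% over all tested genes). None of the 29 was called with only the groups compared. The 5 calls became 3 without any 1 of the DMSO libraries or trametinib replicate 1, and 11 without trametinib replicate 3. After the GC correction 3 were higher and 8 lower. The adaptor GAB2 was among those higher (0.72 ± 0.13).

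Receptor tyrosine kinases split. Of 28 listed 23 were tested, 8 called higher (8.88% over all tested genes) and 4 lower, with a median of 0.09. ALK, an oncogene of neuroblastoma, stood at 8.1, 9.53 and 8.97 scaled FPKM with trametinib, against 0.995, 0.986 and 0.875 with DMSO (2.69 ± 0.16, limma adjusted p = 7.61e-09). PDGFRA, a PDGF receptor that is also on the fibroblast list, stood at 3.27, 2.1 and 3.12 with trametinib, against 0.355, 0.446 and 0.959 with DMSO (1.64 ± 0.25). The groups did not overlap for either. NTRK3, the receptor for NT-3, was higher by 1.09 ± 0.37, close to the threshold (adjusted p = 0.0481) and not called without any 1 library other than trametinib replicate 3. RET and FGFR4 were among the 4 falls (-2.93 ± 0.15 and -0.97 ± 0.2). Fitted with only the groups compared, 3 members were called higher and 1 lower, and FGFR4 and NTRK3 had adjusted p = 0.136 and 0.0849.

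Most genes of DNA replication were lower with trametinib in YAPKO2. All 57 listed members were tested, 42 were called lower (11.1% over all tested genes) and 0 higher, with a median log2 change of -0.78. The median over the list was -0.68, -0.75 and -0.75 in trametinib replicates 1, 2 and 3 relative to the DMSO mean. All 3 are negative. CDC6, which loads the replicative helicase, stood at 18.7, 14.8 and 19.5 scaled FPKM with trametinib, against 41.6, 38.4 and 36.5 with DMSO (-1.12 ± 0.13, limma adjusted p = 9.78e-06). GINS1, a helicase subunit, stood at 18.2, 16.9 and 16.7 with trametinib, against 37.1, 41.1 and 36.7 with DMSO (-1.13 ± 0.08). RRM2, the regulated subunit of ribonucleotide reductase, stood at 46.6, 50.4 and 41.7 with trametinib, against 90.5, 95.3 and 82.4 with DMSO (-0.95 ± 0.09). In all 3 genes the trametinib libraries are close to each other and lie below every DMSO library. MCM10 changed by -1.26 ± 0.16 and GMNN, the inhibitor of relicensing, by -1.16 ± 0.21. CLSPN of the replication checkpoint changed by -1.24 ± 0.28, with 6, 2.44 and 9.07 with trametinib and 14.5, 11 and 13.5 with DMSO, lowest in replicate 2. The change was -0.77 without trametinib replicate 2, and CLSPN and GMNN were not called with only the groups compared (adjusted p = 0.168 and 0.0885). Of the 57 members 41 were called lower without trametinib replicate 2, 48 after the GC correction, and 21 with only the groups compared.

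The cyclin, CDK and E2F genes that switch cells into S phase were lower or did not pass the test. Of 31 listed 29 were tested, 14 lower (11.1% over all tested genes) and 0 higher, with a median of -0.35. Among the activators, TFDP1, the partner of the E2F factors, stood at 41.3, 38.2 and 34.5 scaled FPKM with trametinib, against 75.4, 76.7 and 80.5 with DMSO (-1.02 ± 0.08, limma adjusted p = 1.62e-07). CCNE1, cyclin E1, stood at 9.27, 8.49 and 7.62 with trametinib, against 16, 18.5 and 16 with DMSO (-0.95 ± 0.13). E2F1 stood at 32.2, 35.4 and 22.7 with trametinib, against 46.9, 50.3 and 42.9 with DMSO (-0.65 ± 0.14). The values of these genes did not overlap between the groups. CDC25A, the phosphatase that activates CDK2, changed by -1.05 ± 0.13 and E2F2 by -0.93 ± 0.14. CCND1, the D cyclin that ERK signalling sustains, was lower (-0.5 ± 0.1), at 69.5, 63.3 and 70.5 with trametinib and 101, 103 and 84.7 with DMSO. The inhibitors did not pass the test: CDKN1A averaged 82.2 ± 20.7 with trametinib and 95.7 ± 6.03 with DMSO (SD, n = 3 each), and CDKN1B was at 65.8, 52.4 and 73.6 with trametinib and 67.4, 65.2 and 68.3 with DMSO. Both overlapped between the groups, and the sign of CDKN1B (-0.08 ± 0.1) turned without trametinib replicate 2. Without that replicate the change of CDKN1A was -0.42 (adjusted p = 0.0484). CCND1, E2F1 and E2F2 were not called with only the groups compared (adjusted p = 0.0765, 0.116 and 0.0573), where 3 of the 29 were lower.

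Part of the repair genes that act at replication forks were lower. All 35 members of the homologous recombination, Fanconi and checkpoint list were tested, 15 lower (11.1% over all tested genes) and 1 higher, with a median of -0.71, while 19 did not pass the test. Without trametinib replicate 2 the median was -0.44, with 12 lower and 1 higher. After the GC correction 19 were lower and 1 higher. EXO1, a nuclease that resects DNA ends, stood at 15.9, 13.2 and 18.4 scaled FPKM with trametinib, against 35.4, 36.8 and 38.6 with DMSO (-1.21 ± 0.12, limma adjusted p = 2.13e-06). The checkpoint kinase CHEK1 stood at 20.7, 18.4 and 23.2 with trametinib, against 42.8, 49.1 and 45.9 with DMSO (-1.13 ± 0.11). UBE2T, the ubiquitin-conjugating enzyme of the Fanconi pathway, stood at 61.7, 57.8 and 62.2 with trametinib, against 123, 126 and 130.2 with DMSO (-1.06 ± 0.08). Each was lower in all 3 trametinib libraries by a like amount. BRCA1 was weaker (-0.71 ± 0.23, adjusted p = 0.037) and not called without either of DMSO replicates 1 and 3 or trametinib replicates 1 and 2, nor with only the groups compared (adjusted p = 0.189). There, 10 of the 35 were lower.

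E2F factors bind a short promoter motif at replication genes, and mitotic genes often carry a CHR element near their start. The promoters of CDC6 and E2F1, which fell, are shown for the E2F motif, and that of CENPA, the centromeric histone, for the CHR element (all RefSeq, GRCh38.p14, 250 bases before to 50 after the start). CDC6 is on the plus strand at chr17:40287629-40287928, E2F1 on the minus strand at chr20:33686336-33686635 and CENPA on the plus strand at chr2:26785806-26786105. Capitals mark the matches on either strand.
CDC6 promoter: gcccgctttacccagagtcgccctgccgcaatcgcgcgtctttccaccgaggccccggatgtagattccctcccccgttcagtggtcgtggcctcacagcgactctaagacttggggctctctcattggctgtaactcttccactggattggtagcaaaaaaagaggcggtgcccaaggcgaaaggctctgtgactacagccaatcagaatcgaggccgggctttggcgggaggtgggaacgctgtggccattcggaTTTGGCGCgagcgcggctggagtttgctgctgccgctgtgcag
E2F1 promoter: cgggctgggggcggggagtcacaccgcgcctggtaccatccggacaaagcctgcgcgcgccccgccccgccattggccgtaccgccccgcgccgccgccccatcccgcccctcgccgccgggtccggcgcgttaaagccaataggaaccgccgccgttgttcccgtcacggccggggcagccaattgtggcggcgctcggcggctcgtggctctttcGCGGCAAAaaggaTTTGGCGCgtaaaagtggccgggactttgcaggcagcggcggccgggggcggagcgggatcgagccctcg
CENPA promoter: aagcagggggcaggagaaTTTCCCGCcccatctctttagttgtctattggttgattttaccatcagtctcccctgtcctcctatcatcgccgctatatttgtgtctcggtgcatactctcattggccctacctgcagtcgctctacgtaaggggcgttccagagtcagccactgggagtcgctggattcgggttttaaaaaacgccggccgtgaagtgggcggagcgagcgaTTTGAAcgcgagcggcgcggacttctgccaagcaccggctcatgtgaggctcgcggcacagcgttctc
In CDC6 the E2F match begins 8 bases after the start. In E2F1 a match on each strand begins 33 and 20 bases before the start. In CENPA the CHR match begins 18 bases before the start and an E2F match 232 bases before it. The letters searched were TTTCCCGC, TTTCGCGC, TTTGCCGC and TTTGGCGC for E2F and TTTGAA for CHR, on both strands, and no E2F match overlapped a CHR match in the 3 windows shown. The E2F letters were in 36.4% of the 66 promoters of 49 matched replication genes and in 3.3% of all 34943 promoters. CHR letters were in 63.8% of the 58 promoters of 49 matched mitosis genes and in 15.2% of all promoters. In the 14115 promoters of tested protein-coding genes the shares were 4.78% for E2F and 10.3% for CHR. Among list members called lower they were 37.5% of 48 replication promoters for E2F and 62.9% of 35 mitosis promoters for CHR. The lists hold genes known as targets of these factors, so the shares describe the lists and a match is not a bound site.

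Most mitosis and spindle genes were lower in YAPKO2 with trametinib, with a split by GC content. All 58 were tested, 37 lower (11.1% over all tested genes) and 0 higher, with a median of -0.81. AURKA, a spindle pole kinase, stood at 22.9, 23.9 and 24.2 scaled FPKM with trametinib, against 51.1, 51.1 and 47.7 with DMSO (-1.06 ± 0.08, limma adjusted p = 6.18e-08). CCNB1, cyclin B1, stood at 140.1, 159 and 113 with trametinib, against 258, 297 and 273 with DMSO (-1.02 ± 0.12). CENPA stood at 14.1, 13.2 and 15.2 with trametinib, against 29.9, 29.9 and 37.2 with DMSO (-1.16 ± 0.12). These lie at 46.2%, 44.8% and 49.4% GC, and their groups are well apart. TOP2A, the topoisomerase of chromosome segregation (38.9% GC), instead stood at 33.2, 10.6 and 66.6 with trametinib, against 79.4, 54.3 and 74.2 with DMSO. CDK1, the mitotic kinase (35.8% GC), stood at 30.5, 16.5 and 57.7 with trametinib, against 80.0, 49.9 and 74.7 with DMSO. KIF11, a spindle motor (38.3% GC), stood at 8.41, 2.86 and 18.2 with trametinib, against 23.1, 14.3 and 21.5 with DMSO. In these 3 trametinib replicate 2 was lowest and replicate 3 overlapped the DMSO values, and their calls (limma adjusted p = 0.0456, 0.0351 and 0.0436) were lost without any 1 of trametinib replicates 1 and 2 and DMSO replicates 1 and 3, and with only the groups compared (adjusted p = 0.313, 0.226 and 0.291). The call of TOP2A was also lost without DMSO replicate 2.

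Across the list the same split held. Over all tested genes 11.1% were called lower, and 15.1% were lower with no overlap between the groups. Of the 29 members of the list at or above the median of 42.3% GC, 27 were called lower and 28 had no overlap, with medians of -0.70, -0.62 and -1.01 in trametinib replicates 1, 2 and 3 relative to the DMSO mean. Of the 29 below it, 10 were called lower and 7 had no overlap, with medians of -0.85, -1.74 and 0.27. By these medians the members at or above 42.3% GC lie below the DMSO mean in each trametinib library, and the others in replicates 1 and 2. The replication list showed a smaller split: -0.63, -0.50 and -0.97 for the 29 members at or above 45.3% GC, and -0.85, -1.15 and -0.46 for the 28 below. In the repair list 11 of the 18 members at or above its median of 43.1% GC were called lower, with medians of -0.60, -0.65 and -0.72 in trametinib replicates 1, 2 and 3. Of the 17 below it, 4 were called lower (11.1% over all tested genes), with medians of -0.44, -0.86 and 0.07. By these medians the 17 lie below the DMSO mean in replicates 1 and 2 and not in replicate 3. Whether the GC trend of the libraries makes this split was not tested. After the GC correction 42 of the 58 mitosis genes were lower, 29 without trametinib replicate 2, 40 with both, and 16 with only the groups compared. MKI67, the proliferation marker, changed by -0.72 ± 0.18 (adjusted p = 0.0101) and was not called without trametinib replicate 2 (adjusted p = 0.0527) or with only the groups compared (adjusted p = 0.122).

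**Figure D3:**
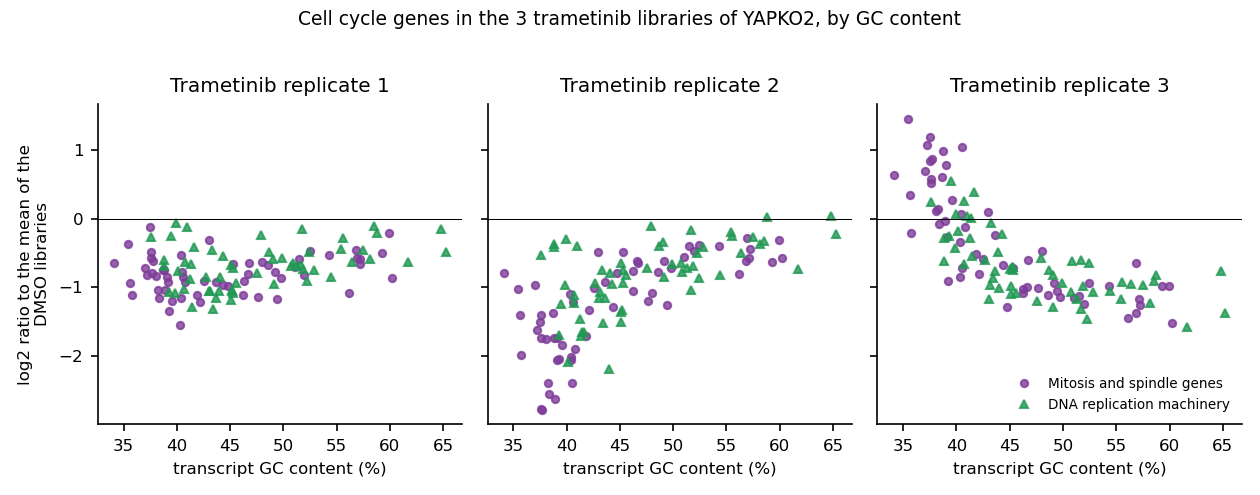
Log2 ratio of each mitosis (58, circles) and replication gene (57, triangles) to the mean of the DMSO libraries (y axis) against its transcript GC content in percent (x axis), 1 panel for each trametinib library of YAPKO2. In both lists the members at or above the list's median GC content lie below 0 by their median in all 3 panels. Mitosis genes below that GC content have a median of -1.74 in replicate 2 and 0.27 in replicate 3.

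Replication-dependent histone genes, which are transcribed in S phase, varied between libraries. Of 47 listed symbols 23 could be matched, and 16 of these were called lower (11.1% over all tested genes) and 1 higher. The median was -0.77. HIST2H3D changed by -1.41 ± 0.25, HIST1H4J by -1.39 ± 0.25 and HIST1H2BJ by -1.2 ± 0.22, all of multicopy families whose reads are uncertain. The list's median was -0.43, -0.61 and -1.38 in the 3 trametinib libraries. Of the 23, 5 were called without DMSO replicate 2, 9 without trametinib replicate 3, and 0 with only the groups compared.

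MYCN was lower, and so were part of its target genes. MYCN stood at 49.4, 55.2 and 41.1 scaled FPKM with trametinib, against 119, 129 and 133 with DMSO (-1.39 ± 0.12, limma adjusted p = 5.83e-07). The list of ribosome and nucleotide synthesis genes known as MYC and MYCN targets holds MYCN itself. Of its 43 tested members 19 were lower (11.1% over all tested genes) and 0 higher, with a median of -0.38. PPAT, the first enzyme of purine synthesis, stood at 13.7, 6.05 and 19.6 with trametinib and 35.5, 25 and 28.7 with DMSO (-1.28 ± 0.28; 38.1% GC), again lowest in replicate 2 of either group, and was not called with only the groups compared (adjusted p = 0.148). The nucleolar protein NCL changed by -0.79 ± 0.14 and lost its call under quantile normalization and with only the groups compared (adjusted p = 0.0573). There, 5 of the 43 members were lower.

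Glycolysis and hypoxia genes were mostly lower where they changed. Of 30 listed 29 were tested, 14 lower (11.1% over all tested genes) and 3 higher, with a median of -0.46. The list's median differed between libraries, at -0.49, -0.12 and -0.89 in trametinib replicates 1, 2 and 3 relative to the DMSO mean. Without trametinib replicate 2 there were 18 lower and 3 higher, with a median of -0.67. Leaving out trametinib replicate 3 gave 10 lower and 3 higher, with a median of -0.27. HK2, the first enzyme of glycolysis, stood at 10.3, 10.7 and 10.6 scaled FPKM with trametinib, against 28.4, 28.8 and 27.7 with DMSO (-1.38 ± 0.08, limma adjusted p = 7.61e-09). LDHA, lactate dehydrogenase A, stood at 221, 278 and 241 with trametinib, against 558, 675 and 622 with DMSO (-1.33 ± 0.1). The angiogenic factor VEGFA stood at 5.5, 4.89 and 4.84 with trametinib, against 18.7, 16.9 and 17.3 with DMSO (-1.7 ± 0.18). All 3 are tight within the groups and far apart between them. NDRG1 (1.51 ± 0.21) and ADM, both known hypoxia targets, rose, so the list held changes of both signs. Of these, 5 lower and 2 higher were called with only the groups compared.

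Of 30 tested ATF4 and unfolded protein response genes 8 were lower (11.1% over all tested genes) and 1 higher, with a median of -0.30. After the GC correction 15 were lower and 2 higher, and without trametinib replicate 2 there were 12 lower and 1 higher. The serine synthesis enzyme PSAT1 stood at 17.2, 16.9 and 14.9 scaled FPKM with trametinib, against 37.6, 41.5 and 43 with DMSO (-1.29 ± 0.08, limma adjusted p = 1.01e-08). SLC7A5, a leucine transporter, changed by -1.16 ± 0.18 (adjusted p = 0.058 with only the groups compared) and MTHFD2, of mitochondrial folate metabolism, by -0.83 ± 0.08, while ATF5 was higher by 1.02 ± 0.21 (adjusted p = 0.092 in that same fit). Of 24 tested cholesterol synthesis genes 7 were lower and 1 higher (11.1% and 8.88% over all tested genes), with a median of -0.27. The sterol reductase TM7SF2 stood at 33, 39.5 and 23.2 with trametinib and 11.3, 12.5 and 13.1 with DMSO (1.31 ± 0.2). Its values are apart between the groups, and its sign is opposite to that of the list. The count of called cholesterol genes was 5 without DMSO replicate 2.

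**Figure D4:**
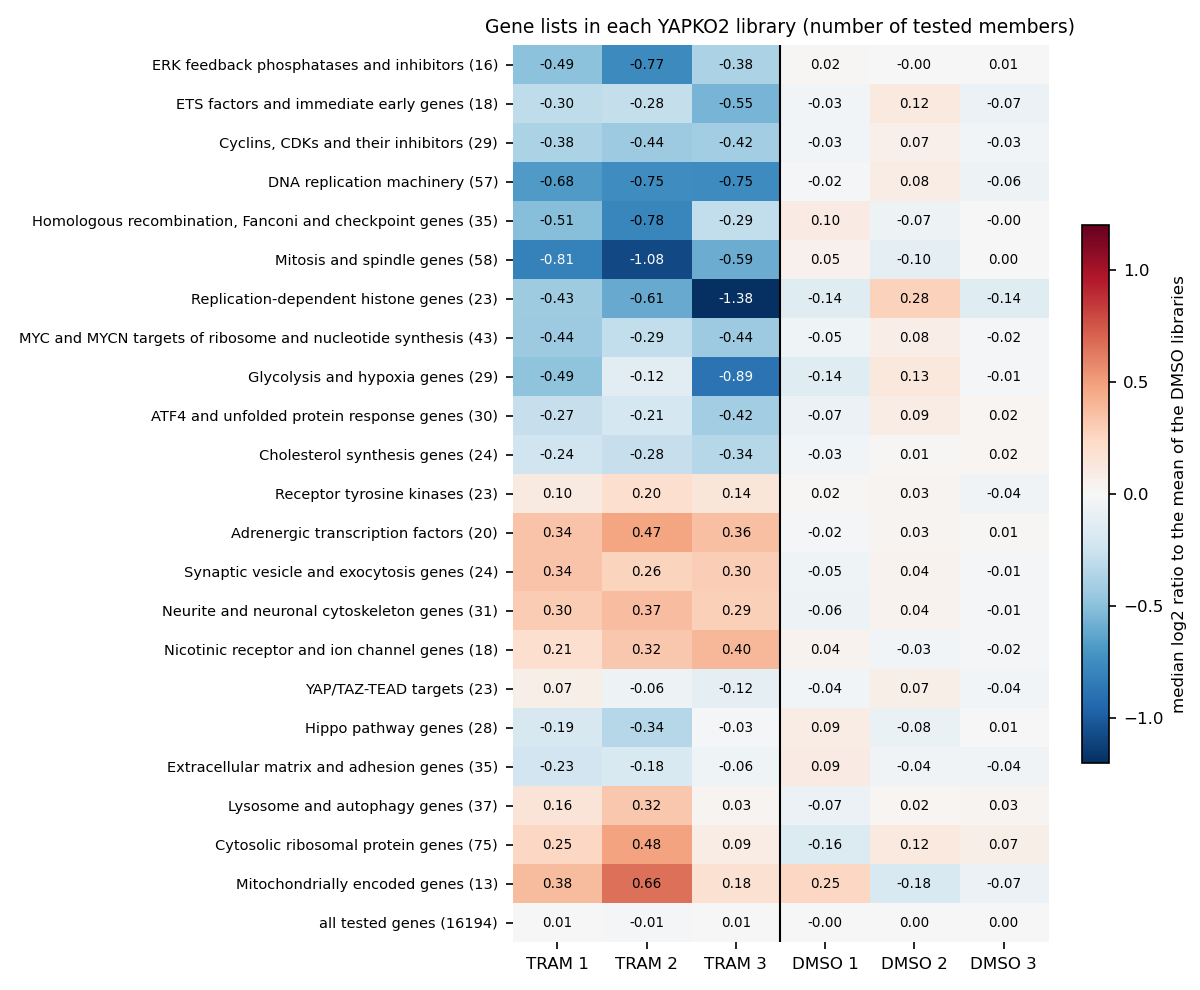
Median log2 ratio of the tested members of each gene list (rows, with the number of members) to the mean of the DMSO libraries, in the trametinib (TRAM) and DMSO libraries of YAPKO2 (columns); blue is lower and red higher. Replication genes are lower in each trametinib library (-0.68, -0.75 and -0.75) and adrenergic factors higher (0.34, 0.47 and 0.36), while the last row, all tested genes, stays near 0.

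Adrenergic transcription factors were higher or did not pass the test. Of 23 listed 20 were tested, 12 higher (8.88% over all tested genes) and 0 lower, with a median of 0.42 and with 0.34, 0.47 and 0.36 in the 3 trametinib libraries. HAND1, of sympathetic development, stood at 8.36, 9.51 and 5.92 scaled FPKM with trametinib, against 2, 2.5 and 2.37 with DMSO (1.57 ± 0.19, limma adjusted p = 1.50e-05). GATA2 stood at 33, 33.7 and 25.7 with trametinib, against 15.6, 16.3 and 13.5 with DMSO (1.00 ± 0.14). Their groups did not overlap. PHOX2A and GATA3 were higher by 0.76 ± 0.16 and 0.54 ± 0.1. Neither was called with only the groups compared (adjusted p = 0.0874 and 0.0643), where 4 of the 20 were higher. The factors HAND2 (0.18 ± 0.12, adjusted p = 0.326) and ISL1 (0.23 ± 0.09, adjusted p = 0.07) did not pass the test.

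The catecholamine and peptide genes that these factors serve were mixed. Of 13 tested catecholamine genes 3 were higher and 2 lower (8.88% and 11.1% over all tested genes). DBH, which makes noradrenaline, stood at 4.21, 6.95 and 3.23 scaled FPKM with trametinib, against 0.457, 0.685 and 0.569 with DMSO (2.25 ± 0.23, limma adjusted p = 3.19e-06). SLC6A2, the noradrenaline transporter, stood at 53.6, 48.7 and 53.4 with trametinib, against 22.6, 21.1 and 23.1 with DMSO (1.2 ± 0.16). Monoamine oxidase B (MAOB, -1.04 ± 0.22) and GCH1, which makes the cofactor of TH (-0.83 ± 0.19), were lower, both not called with only the groups compared (adjusted p = 0.0655 and 0.0902). Of 11 tested granin, neuropeptide and prohormone processing genes 3 were higher and 2 lower (8.88% and 11.1% over all tested genes). CHGB, chromogranin B, stood at 3.94, 4.24 and 7.01 with trametinib, against 0.548, 0.696 and 0.77 with DMSO (2.21 ± 0.27). SCG3, which sorts granins into granules, stood at 3.08, 1.84 and 5.07 with trametinib, against 0.295, 0.28 and 0.327 with DMSO (2.17 ± 0.26). NPY was lower, at 0.441, 0.332 and 0.173 with trametinib and 2.05, 1.09 and 1.14 with DMSO (-1.22 ± 0.2, adjusted p = 0.0571 with only the groups compared). PAM, which amidates peptides, was lower (-1.05 ± 0.09). SCG2 did not pass the test (-0.23 ± 0.17), at 13.7, 10.6 and 21.2 with trametinib and 18, 15.3 and 18.2 with DMSO.

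Part of the neuronal effector genes rose. Of 24 tested synaptic vesicle and exocytosis genes 6 were higher (8.88% over all tested genes) and 0 lower, with a median of 0.27. The vesicle protein SYP, synaptophysin, stood at 16.2, 21.9 and 13.6 scaled FPKM with trametinib, against 3.06, 3.3 and 3.65 with DMSO (2.19 ± 0.24, limma adjusted p = 6.28e-06). SYN2, synapsin 2, stood at 23.9, 24.7 and 19.6 with trametinib, against 10.0, 7.93 and 8.74 with DMSO (1.3 ± 0.16). Of 31 tested neurite and cytoskeleton genes 12 were higher and 5 lower (8.88% and 11.1% over all tested genes), with a median of 0.26. MAP6, which stabilises microtubules, was higher by 1.27 ± 0.16, and the intermediate filaments INA and PRPH by 1.04 ± 0.11 and 1.11 ± 0.17. The neuronal RNA-binding protein ELAVL4 was higher by 1.14 ± 0.26, with 98.4, 52 and 146 with trametinib and 48.8, 33 and 42.3 with DMSO. With only the groups compared PRPH and ELAVL4 were not called (adjusted p = 0.0529 and 0.156), and 3 members of the list were higher and 1 lower. GAP43, the growth cone protein, was among the falls. It stood at 59, 66.3 and 49.9 with trametinib, against 136, 165 and 132 with DMSO (-1.3 ± 0.12). NEFM was under the filter, and STMN2 did not pass the test (-0.46 ± 0.19).

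Of 18 tested nicotinic receptor and ion channel genes 3 were higher and 2 lower (8.88% and 11.1% over all tested genes). The median was 0.16. CHRNB2 stood at 5.19, 7.36 and 4.59 scaled FPKM with trametinib, against 0.305, 0.384 and 0.506 with DMSO (2.77 ± 0.19, limma adjusted p = 3.10e-08). CHRNA3, the ganglionic alpha subunit, stood at 321, 354 and 308 with trametinib, against 152, 156 and 154 with DMSO (1.08 ± 0.13). SCN3B, a sodium channel beta subunit, stood at 3.62, 3.39 and 3.83 with trametinib, against 0.569, 0.478 and 0.39 with DMSO (2.07 ± 0.17). The 3 rises do not overlap between the groups and were called with only the groups compared (adjusted p = 0.00934, 0.0115 and 0.00857).

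Of 27 listed YAP and TEAD target genes 23 were tested, 4 lower and 1 higher, with a median of -0.11. These 5 of 23 calls are near the share of called genes over all tested genes (20.0%). Under quantile normalization 5 were lower and 4 higher. CYR61 and CTGF, the usual reporters of YAP, were near 0: CYR61 at 0, 0.352 and 0.183 scaled FPKM with trametinib and 0.163, 0.633 and 0.316 with DMSO, and CTGF at most 0.0673 with trametinib and 0.114 with DMSO. DLC1, a GTPase-activating protein, was higher by 1.11 ± 0.13 (limma adjusted p = 9.25e-06), and AMOTL1, which binds YAP, was lower (-0.57 ± 0.09). Of the 28 tested Hippo pathway genes 2 were higher and 5 lower, with a median of -0.30 (8.88% higher and 11.1% lower over all tested genes). After the GC correction 7 were higher and 9 lower. Without trametinib replicate 2 there were 5 of each, with a median of -0.08, and under quantile normalization 4 higher and 7 lower. WWTR1, which encodes the YAP paralogue TAZ, stood at 1.59, 1.66 and 1.93 with trametinib and 3.87, 2.74 and 3.45 with DMSO (-0.78 ± 0.17). TEAD4 was lower (-0.72 ± 0.2). None of the Hippo genes was called with only the groups compared, where the adjusted p was 0.0742 for WWTR1, 0.23 for TEAD4 and 0.0506 for AMOTL1. TEAD4 was also not called without DMSO replicate 2, and without trametinib replicate 3 the Hippo counts were 3 higher and 9 lower.

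Mesenchymal-state factors were split, with a median of -0.25: 5 of 19 tested were higher and 6 lower (8.88% and 11.1% over all tested genes). SNAI1, a repressor of epithelial genes, was higher by 1.11 ± 0.15, and the intermediate filament VIM was lower (-0.89 ± 0.14). Of 35 tested matrix and adhesion genes 4 were higher and 6 lower (8.88% and 11.1% over all tested genes), with a median of -0.25. Without trametinib replicate 2 there were 2 higher and 9 lower, with a median of -0.06, and after the GC correction 4 higher and 13 lower. Collagen COL1A2 was lower (-1.14 ± 0.23). The members DCN and LUM carry the fibroblast sum given above. DCN stood at 125, 120.2 and 131 scaled FPKM with trametinib and 214, 220.0 and 201 with DMSO (-0.75 ± 0.16, limma adjusted p = 0.00237). LUM (36.5% GC) stood at 62.8, 18.1 and 164 with trametinib and 345, 105 and 203 with DMSO (-1.75 ± 0.64, adjusted p = 0.0642). DCN was even across libraries and LUM was not. VIM had, with only the groups compared, an adjusted p of 0.0693, and 1 matrix gene was higher and 2 lower.

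Of 16 tested BCL2 family genes 3 were higher and 2 lower, against 20.0% called in either direction over all tested genes. The 5 became 3 without DMSO replicate 2 and 9 without trametinib replicate 3. BMF, a BH3-only killer protein, stood at 23.7, 23.9 and 23.4 scaled FPKM with trametinib, against 9.55, 5.59 and 7.89 with DMSO (1.59 ± 0.2, limma adjusted p = 2.25e-05). Its trametinib values are nearly equal and all above the DMSO values. BCL2L11, whose protein BIM is degraded on ERK signalling, had RNA at 12.4, 11 and 11 with trametinib and 13.6, 13.2 and 12.7 with DMSO and did not pass the test (-0.19 ± 0.1, adjusted p = 0.213). MCL1 did not either (-0.14 ± 0.09). BCL2 was higher by 0.82 ± 0.21, not called without DMSO replicate 2 or with only the groups compared (adjusted p = 0.159), and the mitophagy receptor BNIP3, also on the hypoxia list, was lower (-0.85 ± 0.09). Of 25 tested p53 targets 2 were higher and 4 lower (8.88% and 11.1% over all tested genes). TP53INP1 was higher by 1.32 ± 0.25 and the stress cytokine GDF15 lower (-1.22 ± 0.22). None of the 25 was called with only the groups compared, without trametinib replicate 3 the counts were 3 and 7, and after the GC correction 2 and 9.

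Ribosomal protein and mitochondrial genes depended on single libraries. Of 75 tested cytosolic ribosomal protein genes 17 were higher (8.88% over all tested genes) and 0 lower, with a median of 0.28. That count was 2 without trametinib replicate 2 or without DMSO replicate 1, 10 without DMSO replicate 3, 39 without trametinib replicate 3, 29 after the GC correction, and 0 with only the groups compared. Of 13 mitochondrially encoded genes 4 were higher (8.88% over all tested genes), with a median of 0.40. That count was 0 without DMSO replicate 2, 1 without DMSO replicate 3 or trametinib replicate 2, and 0 with only the groups compared. Protein-coding genes took 45.6%, 60.5% and 53% of the FPKM in the trametinib libraries, against 37.3%, 47.2% and 38.8% in the DMSO libraries. Whether this shift bears on the lists was not tested.

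The response of YAPKO2 was set beside those of sgCON and YAPKO1 by testing the difference of the log2 changes; the responses share no library. It differed from sgCON for 781 genes (4.82%), 297 of them more positive in YAPKO2 (1.83%) and 484 more negative (2.99%). It differed from YAPKO1 for 130 genes (0.803%), 36 more positive (0.222%) and 94 more negative (0.58%). With only the 12 libraries of the lines compared the counts were 450 and 3. Leaving out 1 library moved the first count to between 511 and 1166 and the second to between 51 and 176. The count against sgCON was 519 without sgCON DMSO replicate 2, 511 without sgCON trametinib replicate 2 and 515 without YAPKO2 DMSO replicate 2. The count against YAPKO1 was 51 to 82 without any 1 of 8 libraries, namely each DMSO library of YAPKO2, YAPKO2 trametinib replicate 1, and trametinib and DMSO replicates 1 and 2 of YAPKO1. The libraries of YAPKO1 also differ among themselves in GC trend, from -0.42 to 0.69.

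Part of the cell cycle genes had a more negative change in YAPKO2 than in sgCON. The difference was called negative for 31 of 57 replication genes, 27 of 58 mitosis genes, 11 of 35 repair genes and 8 of 29 cyclin and E2F genes, and positive for 0 of each (2.99% and 1.83% over all tested genes). In sgCON itself 838 genes were called (5.17%), 2.3% of the tested genes higher and 2.87% lower. Of them 2 replication genes and 1 mitosis gene were higher and 0 of either lower, with medians of 0.04 and -0.01. In YAPKO1 1275 genes were called (7.87%), 4.08% higher and 3.79% lower. Of them 3 replication and 6 mitosis genes were lower and 0 of either higher, with medians of -0.17 and -0.35. Against YAPKO1 the difference was called negative for 13 replication and 4 mitosis genes (0.58% over all tested genes). CDC6 changed by -1.12 ± 0.13 in YAPKO2, -0.41 ± 0.13 in YAPKO1 and -0.02 ± 0.13 in sgCON. The difference was -1.1 ± 0.18 from sgCON (limma adjusted p = 0.00146) and -0.71 ± 0.18 from YAPKO1 (adjusted p = 0.0919). CCND1 was lower in YAPKO2 (-0.5 ± 0.1) and stood at 0.27 ± 0.1 in YAPKO1 and 0.23 ± 0.1 in sgCON, a difference of -0.73 ± 0.14 from sgCON (adjusted p = 0.00436) and -0.77 ± 0.14 from YAPKO1 (adjusted p = 0.0121). After the GC correction 44 replication and 40 mitosis genes were more negative than in sgCON, beside 1095 of the 15615 genes in that fit. Without trametinib replicate 2 they were 34 and 26, beside 524 of the 16194 tested genes.

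Part of the granule genes had a more positive change in YAPKO2 than in sgCON. For 6 of 11 granin and neuropeptide genes the difference was positive and for 0 negative (1.83% positive over all tested genes). Against YAPKO1 the difference was positive for 2 of the 11 (0.222% over all tested genes). CHGA changed by 3.8 ± 0.25 in YAPKO2, 1.59 ± 0.25 in YAPKO1 and 0.91 ± 0.25 in sgCON, a difference of 2.89 ± 0.36 from sgCON (limma adjusted p = 0.000121) and 2.2 ± 0.36 from YAPKO1 (adjusted p = 0.0077, and 0.0762 with only the groups compared). SCG2, secretogranin II, did not pass the test in YAPKO2 and fell in the other lines: -1.71 ± 0.17 in YAPKO1 and -2.56 ± 0.17 in sgCON, against -0.23 ± 0.17 in YAPKO2. CHRNB2 differed by 2.43 ± 0.27 from sgCON and 2.06 ± 0.27 from YAPKO1, RUNDC3A by 2.13 ± 0.33 and 2.27 ± 0.33, and CELF3 by 2.23 ± 0.32 and 1.55 ± 0.32. With only the groups compared none of these differences from YAPKO1 was called, while those from sgCON were (adjusted p = 0.215 for SCG2, 0.0589 for CHRNB2, 0.0762 for RUNDC3A and 0.221 for CELF3 against YAPKO1). The difference of CHGA from either line was also not called with a pseudocount of 0.1. That of CELF3 from YAPKO1 was not called without any 1 of the 3 DMSO libraries and trametinib replicates 1 and 2 of YAPKO2.

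GAP43 fell in YAPKO2 and rose in the other lines. It stood at 58.4 ± 8.26 scaled FPKM with trametinib and 144 ± 18 with DMSO in YAPKO2, 96.6 ± 12 with trametinib and 43.8 ± 4.22 with DMSO in YAPKO1, and 143 ± 10.9 with trametinib and 56.4 ± 3.76 with DMSO in sgCON (SD, n = 3 each). The log2 change was -1.3 ± 0.12 in YAPKO2, 1.13 ± 0.12 in YAPKO1 and 1.34 ± 0.12 in sgCON. The difference was -2.63 ± 0.17 from sgCON (limma adjusted p = 2.24e-07) and -2.43 ± 0.17 from YAPKO1 (adjusted p = 8.29e-07), and it stayed called with only the groups compared. FAM105A differed by -1.53 ± 0.25 from sgCON and -1.34 ± 0.25 from YAPKO1, the chemokine receptor CXCR4 by -1.26 ± 0.27 and -1.27 ± 0.27, and ETV4 by -1.3 ± 0.27 and -1.26 ± 0.27. ETV4 levels with trametinib were 0.379 ± 0.176 in YAPKO2, 2.09 ± 0.546 in YAPKO1 and 1.85 ± 0.346 in sgCON, so its difference lies near the pseudocount, and it was not called against YAPKO1 with a pseudocount of 1. FAM105A, CXCR4 and ETV4 were not called against YAPKO1 with only the groups compared (adjusted p = 0.217, 0.15 and 0.302), nor without 1 or more of the single libraries of YAPKO2 and YAPKO1, and CXCR4 was called against neither line with a pseudocount of 0.1. Of the 16 ERK feedback genes 2 were more positive and 2 more negative than in sgCON (1.83% and 2.99% over all tested genes). DUSP6 differed by 0.12 ± 0.27 (adjusted p = 0.899), a difference smaller than its SE.

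**Figure D5:**
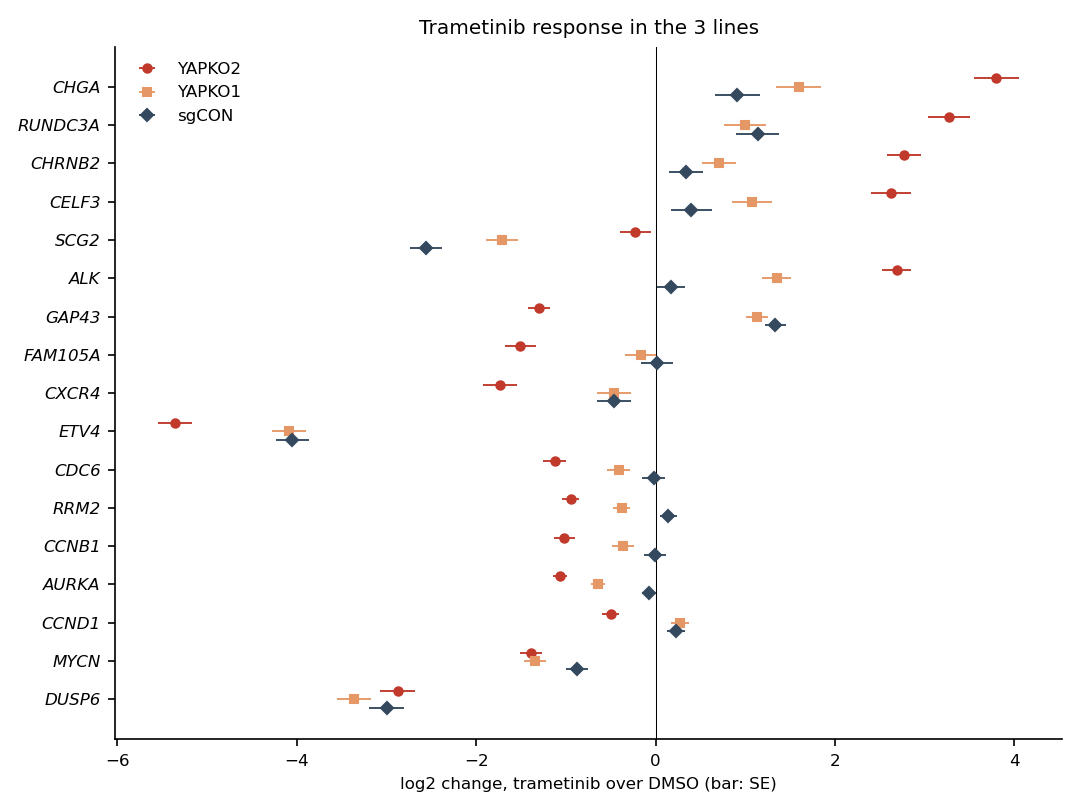
Log2 change with trametinib (x axis; bars are the SE of the fit) of 17 genes in YAPKO2, YAPKO1 and sgCON, in that order from top to bottom within a gene. CHGA, RUNDC3A, CHRNB2 and CELF3 rose most in YAPKO2, GAP43 fell in YAPKO2 (-1.3) and rose in the other lines, and CDC6, RRM2, CCNB1 and AURKA lie near 0 in sgCON and lowest in YAPKO2.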

How the data were processed

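Total RNA of 21 NLF libraries, 7 groups of 3 by line and treatment as labelled, was sequenced with a stranded kit after ribosomal RNA removal, per the labels' protocols. Per the submitters' processing notes, STAR 2.4.2, RSEM 1.3.0 and the hg19 build were used; whether the counting used strand is not given in the sources used here, so antisense pairs are uncertain. The authors deposited FPKM of 57820 genes, and a second FPKM table that equals the first times 1 factor per library (0.927 to 1.07). FPKM values hold no counts, so the depth is unknown beyond the relative depth read from low values, and no counting interval is given.

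Genes with at least 1 FPKM in at least 3 libraries were kept (16194). FPKM was divided by a scale per library, the median ratio to the geometric mean over 14403 genes above 0 in all libraries, and log2(value + 0.5) was fitted with limma 3.58.1 as 7 group means with a trended prior. The pseudocount understates the change of low genes. P-values were Benjamini-Hochberg adjusted over all 16194 genes and called under 0.05; ± after a log2 value is the SE of the fit. The scripts were tested on simulated data. Transcript GC content came from GENCODE release 29 (GRCh38) for 15615 genes (96.4%), and the GC correction subtracts a spline with 5 degrees of freedom per library. Named genes are the 12 largest called rises and falls among protein-coding genes whose values do not overlap, with a mean of at least 5 scaled FPKM in the higher group and a call of the same sign without trametinib replicate 2; up to 6 members of each list with the largest absolute log2 change; genes fixed by name; and the 5 largest differences of each sign called against both other lines. Some genes that the rule names are not reported here. The members and lists were chosen with earlier results of these data known. The GC correction without trametinib replicate 2 was added after seeing the data. Other alternatives were other pseudocounts, no filter, no scaling, quantile normalization, the second table, only the groups compared, library weights, a replicate block, and leaving out each library.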

Additional observations from a re-analysis of the deposited data

Results flagged for a closer look

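The responses of the lines were set against each other by a test of the difference itself (limma, 3 libraries in each of the 4 groups involved). The trametinib response of YAPKO2 differed from that of sgCON for 781 genes and from that of YAPKO1 for 130 genes.

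By the criteria for named genes, 19 genes had a more positive change in YAPKO2 than in both other lines, and 78 a more negative one. The 5 largest positive differences are given first. The difference of CHGA, chromogranin A, was 2.89 from sgCON and 2.2 from YAPKO1 (log2). RUNDC3A differed by 2.13 from sgCON and 2.27 from YAPKO1, CHRNB2 by 2.43 from sgCON and 2.06 from YAPKO1, and CELF3 by 2.23 from sgCON and 1.55 from YAPKO1. SCG2 differed by 2.33 from sgCON and 1.49 from YAPKO1.

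Another 4 had a more negative change in YAPKO2. GAP43 differed by -2.63 from sgCON and -2.43 from YAPKO1. FAM105A differed by -1.53 from sgCON and -1.34 from YAPKO1, CXCR4 by -1.26 from sgCON and -1.27 from YAPKO1, and ETV4 by -1.3 from sgCON and -1.26 from YAPKO1. With only the groups compared GAP43 was called against both lines and the other 8 genes against sgCON only.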

How the results depend on the processing

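The 3243 genes called for the response in YAPKO2 became 683 with only the groups compared, 2045 without replicate 2 of both groups, 632 with an absolute log2 change of at least 1, and 9950 with library weights, a fit that did not converge and gave trametinib replicate 1 a weight of 264. Leaving out 1 library gave 2274 to 4564. The difference from sgCON (781 genes) became 450 with only the groups compared, 4928 with library weights, 1715 with the GC correction, 1820 with that correction and without trametinib replicate 2, 515 without replicate 2 of both groups, 349 at a log2 difference of at least 1, and 511 to 1166 without 1 library. The difference from YAPKO1 (130 genes) became 63 with the second table, 3 with only the groups compared, 3187 with library weights, 371 with the GC correction, 398 with that correction and without trametinib replicate 2, 54 without replicate 2 of both groups, 47 at a log2 difference of at least 1, and 51 to 176 without 1 library. A threshold on the size can only lower a count. A fit with only the groups compared has fewer libraries and takes its spread from those groups alone. Fewer libraries did not always give fewer calls. Without YAPKO2 trametinib replicate 3 there were 4564 for the response and 1166 for the difference from sgCON. Apart from the threshold, the cause of the changes in count was not tested. Pseudocounts of 0.1 and 1, no filter, no scaling and quantile normalization left the 3 counts within 1.5 times.

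Deviations of same-numbered libraries of YAPKO2 correlated by -0.05, 0.36 and 0.08. Those of differently numbered libraries ranged from -0.39 to 0.32. These values cannot show whether libraries of the same number were handled together. With the replicate block 2843 genes were called for the response, 580 against sgCON and 77 against YAPKO1. With the replicate block and the GC correction the counts were 4284, 1510 and 274.

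Of the 116 genes named here as called for the response, 41 lost the call with only the groups compared, and at most 6 without any 1 library. No called gene changed sign. Among genes not called, the change of YAP1 turned positive without replicate 2 of both groups (0.086) and with the GC correction without trametinib replicate 2 (0.15), and ranged from -0.54 to 0.13 without 1 library. That of CDKN1B was 0.036 and 0.089 in the same 2 settings, and ranged from -0.19 to 0.055 without 1 library.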

Other observations

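Of 37 tested lysosome and autophagy genes 8 were called higher (8.88% over all tested genes) and 2 lower in YAPKO2, with a median log2 change of 0.14. WIPI1, an early autophagy protein, stood at 21.3, 23.4 and 18.8 scaled FPKM with trametinib, against 7.4, 6.79 and 10.6 with DMSO (1.32 ± 0.16, limma adjusted p = 2.15e-05). Its difference from the response in sgCON was 1.73 ± 0.23 (adjusted p = 0.000283). NPC2, which carries cholesterol out of lysosomes, stood at 37.2, 49.3 and 38.2 with trametinib, against 23.4, 25.9 and 27.2 with DMSO (0.69 ± 0.12). The sialidase NEU1 stood at 12.4, 15.7 and 9.72 with trametinib, against 6.54, 8 and 6.46 with DMSO (0.79 ± 0.17). The groups do not overlap for these 3 genes. The 10 calls became 6 without DMSO replicate 3, 6 without trametinib replicate 2, 5 without trametinib replicate 1, and 1 with only the groups compared, where NPC2 and NEU1 had adjusted p = 0.0604 and 0.0975.

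Of 24 tested MHC class I and interferon genes 4 were higher and 2 lower (8.88% and 11.1% over all tested genes). The median was -0.08. STAT2, of the interferon signalling complex, stood at 22.5, 24.2 and 18.9 scaled FPKM with trametinib, against 9.03, 8.33 and 10.2 with DMSO (1.2 ± 0.12, limma adjusted p = 2.08e-06). IRF9, its partner, stood at 4.73, 5.05 and 4.12 with trametinib, against 2.33, 1.51 and 1.12 with DMSO (1.29 ± 0.29). B2M, the invariant chain of MHC class I, was lower, at 217, 218 and 244 with trametinib, against 321, 345 and 387 with DMSO (-0.63 ± 0.1). Each of them had no overlap between the groups, with the sign of B2M opposite to the others. With only the groups compared IRF9 had an adjusted p of 0.0464.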
